A study of Mus musculus with 8 samples.

Results

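The replication-dependent histone genes of the mouse encode the H1, H2A, H2B, H3 and H4 proteins that package DNA newly made in S phase. They were taken as the protein-coding genes of the GENCODE vM21 annotation whose symbols begin Hist1h, Hist2h, Hist3h or Hist4h, which gave 67 genes of 21951 in all. Membership went by symbol alone. Whether each gene, such as Hist1h1t or the pair Hist1h2ba and Hist1h2aa, is active in S phase of B cells was not tested. Of these, 54 lay on chromosome 13, 10 on chromosome 3, 2 on chromosome 11 (Hist3h2ba and Hist3h2a) and 1 on chromosome 6 (Hist4h4). By product, 6 encode H1, 18 encode H2A, 18 encode H2B, 12 encode H3 and 13 encode H4. Their starts fell in 16 bins of 50 kb on the GRCm38 assembly, and each bin is named here by its first and last histone gene.

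Contacts were measured by in situ HiC, in which chromatin is crosslinked, cut with MboI, ligated and sequenced, so that each read pair records that 2 places in the genome lay close together. Splenic B cells of C57BL/6 mice (males of 6 to 12 weeks, of C57BL/6 Pep3b background by the study's methods) were labelled with a division dye and activated by lipopolysaccharide (LPS), a product of bacteria, at 25 μg/ml, and cells sorted as undivided were taken at 3 h, at 10 h and at 33 h, the last called imminent division. The pre-S group was also taken at 33 h, but from C57BL/6 FUCCI mice, whose fluorescent reporters mark the phase of the cell cycle, and was sorted for cells that had not entered S phase, so strain and sort gate cannot be told apart from the group. Each group had 2 biological replicates, and the 8 libraries held 88703088 to 218945191 read pairs. Of the read pairs with both ends on autosomes, 70.92 to 75.06% joined places on the same chromosome.

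Histone genes of this class are switched on as cells enter S phase, when new nucleosomes are needed. NPAT, a coactivator driven by cyclin E and CDK2, gathers at the clusters in a nuclear compartment known as the histone locus body. Their mRNAs have no poly(A) tail and end instead in a short stem-loop, which is bound by SLBP and cut by a machinery that includes the U7 snRNP, so that the message can be made and destroyed with DNA synthesis.

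The chromosome 13 cluster is not continuous. With a gap of over 100 kb between neighbouring genes as the divide, it fell into 4 parts. Part 1 (chr13:21715763-21837530) holds 18 genes in 3 bins, Hist1h2bl to Hist1h4j, Hist1h4k to Hist1h2bp and Hist1h2bq to Hist1h2br. Part 2 (chr13:22035164-22043676) holds 5 genes in the bin Hist1h2ah to Hist1h2bj. Part 3 (chr13:23531050-23764406), the largest, holds 29 genes in 6 bins: Hist1h4h to Hist1h3f, Hist1h4f to Hist1h4d, Hist1h2be to Hist1h1e, Hist1h2ac to Hist1h4c, Hist1h1c to Hist1h2bb and Hist1h2ab to Hist1h1a. Part 4 (chr13:23933773-23934851) holds only the divergent pair Hist1h2ba and Hist1h2aa. All H1 genes lay in parts 1 and 3, 1 and 5 genes respectively. The chromosome 3 cluster (chr3:96219865-96270132) filled 2 bins, Hist2h2ab to Hist2h3c1 and Hist2h4 to Hist2h2bb. The Hist4h4 bin also holds the start of H2afj. Genes were placed by their GENCODE starts, and for Hist1h2be (chr13:23583670-23621124, minus strand) this choice matters. A RefSeq promoter of Hist1h2be, around chr13:23586010-23586057, lies in the bin Hist1h4f to Hist1h4d.

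The stem-loop named above could be read from the genome. It was searched in the 67 genes only, and other histone genes were not compared. The histone stem-loop, searched on the gene's strand within 150 bases after the stop codon with 3 of its letters left free, was found in 61 of the 67 genes, 21 to 58 bases after the stop (median 30). The commonest core, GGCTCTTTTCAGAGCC, stood in 41 genes on chromosomes 3, 11 and 13, and the core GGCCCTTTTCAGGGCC stood in 8 genes of chromosomes 13 and 6, all of them H4 genes. The 7 sites below are from GRCm38 and written 5′ to 3′ on the gene's strand, with the stem-loop in capitals. They take 1 gene from each part of the chromosome 13 cluster, described above, and from each other chromosome. They are shown as examples of the element in the genes whose contacts follow.
Hist1h1b (part 1, chr13:21779832-21779857, minus strand): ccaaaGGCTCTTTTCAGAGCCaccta
Hist1h2ah (part 2, chr13:22035122-22035147, minus strand): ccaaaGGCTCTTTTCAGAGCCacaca
Hist1h4d (part 3, chr13:23581945-23581970, plus strand): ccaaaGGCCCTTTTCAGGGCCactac
Hist1h2ba (part 4, chr13:23933725-23933750, minus strand): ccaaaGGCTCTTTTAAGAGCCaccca
Hist2h2ac (chr3:96220413-96220438, minus strand): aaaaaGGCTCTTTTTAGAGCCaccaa
Hist3h2a (chr11:58955167-58955192, plus strand): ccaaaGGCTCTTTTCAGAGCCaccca
Hist4h4 (chr6:136803993-136804018, minus strand): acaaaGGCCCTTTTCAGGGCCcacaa
The letters were absent from the window searched in Hist1h4j, Hist1h2an, Hist1h3g, Hist1h4b, Hist1h4a and Hist2h2be.

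The octamer ATTTGCAT, the motif bound by OCT1, was searched on both strands of the RefSeq promoters of GRCm38.p6, from 250 bases before to 50 after the start. Of the 61 histone genes with an entry, 14 held it, 7 of 17 H2A genes and 7 of 16 H2B genes, whereas none of 6 H1, 10 H3 and 12 H4 genes did. Over all 32851 promoters, 1.74% held it. Some divergent H2A and H2B genes read the same octamer from opposite sides, as with Hist1h2ae and Hist1h2bg in part 3 and with the 2 genes of part 4. In other divergent pairs, such as Hist1h2ak and Hist1h2bn in part 1, neither gene held it. The windows below are shown because they place 1 octamer (capitals, reverse strand as ATGCAAAT) in part 3, in part 4 and in the chromosome 3 and 11 clusters.
Hist1h2bg (chr13:23571321-23571368, plus strand): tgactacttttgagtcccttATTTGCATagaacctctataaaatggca
Hist1h2ba (chr13:23934293-23934340, minus strand): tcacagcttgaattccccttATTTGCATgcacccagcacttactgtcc
Hist2h2bb (chr3:96269632-96269679, plus strand): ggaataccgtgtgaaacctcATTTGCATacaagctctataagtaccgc
Hist3h2a (chr11:58954546-58954593, plus strand): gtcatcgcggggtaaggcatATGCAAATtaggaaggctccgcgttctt

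Before contacts were compared, the signal of the histone bins themselves was examined. All 11 of the 100 kb bins that hold histone genes lay in the A compartment, the gene-rich part of the nucleus, in every library, with a component of 0.797 to 1.47. Interchromosomal coverage, given relative to the median autosomal bin, had group medians over the 16 bins of 1.36 at 3 h, 1.27 at 10 h, 1.23 at pre-S and 1.35 at imminent division. It was lower at imminent division than at 3 h in 6 of 16 bins, and lower at pre-S than at 3 h in 13 of 16. Against 10 h it was higher at imminent division, as at Hist1h2ac to Hist1h4c (1.18 to 1.35). The exceptions were Hist2h4 to Hist2h2bb (1.85 to 1.77), Hist4h4 (1.38 to 1.36) and Hist1h4h to Hist1h3f (1.41 to 1.34). Coverage enters the expected number used below, so a higher coverage lowers the ratio. These values bear on DNA copy number, since undivided cells at 33 h may hold replicated DNA, and the part of copy number in the contacts was not tested. The bin Hist1h2bq to Hist1h2br stood apart with a coverage of only 0.31 to 0.37, and 12.1% of its 81-base words, the length of a read, occur in another histone bin as well. For the bin Hist1h4k to Hist1h2bp this share was 11.3%. Reads from such near-identical copies cannot be placed with certainty, so values of these 2 bins are uncertain.

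Contact between parts of the chromosome 13 cluster was measured as read pairs observed over expected, where the expected number follows from the distance between bins in that library and from the interchromosomal coverage of both bins, so that 1 is the genome's typical contact. Parts 1 and 3 lie 1700 to 2050 kb apart by bin and nevertheless contacted each other far above this level. The ratio was 15.8 and 16.8 in the 3 h libraries, 14.8 and 16.1 at 10 h, 11.7 and 11.4 at pre-S, and 7.20 and 7.82 at imminent division. The 3 h and 10 h libraries overlapped, both pre-S libraries lay below them, and both imminent division libraries lay lowest. As group means this was 16.3 ± 0.676 at 3 h, 15.5 ± 0.946 at 10 h, 11.5 ± 0.181 at pre-S and 7.51 ± 0.439 at imminent division (SD, n = 2 each). The fall from 10 h to imminent division was thus 2.06-fold on this scale, and from 10 h to pre-S 1.34-fold. These values rest on 7409 read pairs, of which 1841 came from imminent division. In a library of many cells, fewer cells with a contact and a weaker contact in each cell cannot be told apart.

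Part 2 contacted part 3 in a similar way. Its ratio was 12.6 and 12.8 at 3 h, 12.7 and 13.4 at 10 h, 10.5 and 10.5 at pre-S and 7.39 and 8.60 at imminent division, from 4129 read pairs. Here too 3 h and 10 h overlapped, with pre-S below them and imminent division lowest, and the fall from 10 h to imminent division was 1.63-fold. Parts 1 and 2, which are neighbours, had lower ratios of 3.23 and 3.64 at 3 h, 3.70 and 3.92 at 10 h, 3.63 and 3.33 at pre-S and 2.27 and 2.38 at imminent division. Here pre-S overlapped 3 h and imminent division alone lay below.

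Part 4, with its single H2A and H2B pair, had lower ratios than those of parts 1 and 2 with part 3. With part 3, its close neighbour, the ratio was 1.01 and 1.03 at 3 h and 1.02 and 1.11 at 10 h, near the typical contact for the distance. It was below that level at 33 h, with 0.874 and 0.792 at pre-S and 0.682 and 0.644 at imminent division. With the loess scaling of the edgeR fit given further on, the order of these 2 groups did not hold. The median log2 change from 10 h was -0.38 at pre-S and -0.27 at imminent division. Only 3 of the 6 bin pairs were negative at imminent division against pre-S (median -0.03). With part 1 the ratio of part 4 was 4.22 and 3.56 at 3 h, 3.40 and 2.64 at 10 h, 2.16 and 3.19 at pre-S and 1.46 and 1.51 at imminent division, from 231 read pairs. With part 2 only 130 read pairs were counted. Imminent division, at 1.71 and 1.75, lay below pre-S at 2.16 and 3.17 and below 3 h at 3.38 and 2.65, whereas the libraries of 10 h spanned 1.45 to 3.22 and overlapped every other group.

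**Figure D1:**
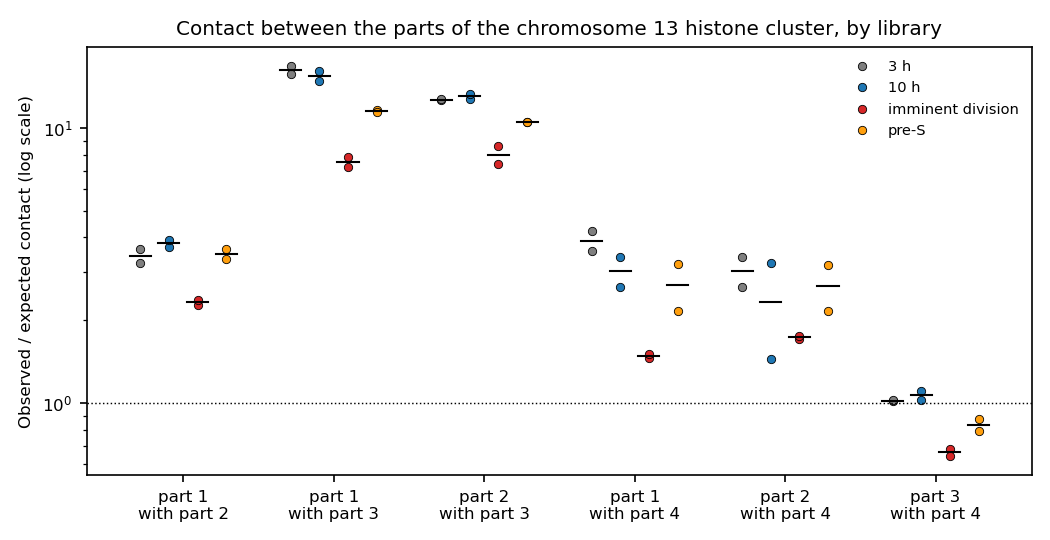
Observed over expected contact (log scale) between the parts of the chromosome 13 histone cluster, with 1 point for each library, coloured by group, a bar at each group mean and a dotted line at 1. For parts 1 and 3 the imminent division libraries sit at 7.20 and 7.82, below the pre-S libraries at 11.4 and 11.7 and the 10 h libraries at 14.8 and 16.1.

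Differences between the 4 groups were tested with an exact permutation test of the F ratio over the 8 libraries, which has 105 distinct arrangements and cannot give a p below 0.00952, with adjustment over the 9 pairs of parts or clusters tested together. For parts 1 and 3, parts 2 and 3 and parts 3 and 4, the exact permutation p was 0.019 and the adjusted p 0.0571, so none passed 0.05. Adjusted values were 0.0857 for part 1 with part 2 and with part 4, and 0.637 for part 2 with part 4. With the expected number taken from distance alone, or from pairs of A compartment bins, the adjusted p of parts 1 and 3 and of parts 2 and 3 was 0.0429 in each case, and the log2 difference of parts 1 and 3 between imminent division and 10 h was -0.78 and -0.83 in place of -1.04. With the bin Hist1h2bq to Hist1h2br left out, the parts 1 and 3 ratio was 14.3 and 16.0 at 10 h and 7.17 and 7.67 at imminent division.

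The long-range contact was spread over the parts and not set by 1 pair of bins. All 18 bin pairs between parts 1 and 3 had a ratio over all libraries of 7.75 to 17.8, and all 6 between parts 2 and 3 one of 5.13 to 16.0. Over all libraries, Hist1h4f to Hist1h4d, which holds 9 histone gene starts by GENCODE, had the highest ratio of the part 3 bins with each bin of part 1, at 17.8 with Hist1h2bq to Hist1h2br, 15.9 with Hist1h4k to Hist1h2bp and 14.5 with Hist1h2bl to Hist1h4j. In single groups this order did not always hold, and at 3 h Hist1h2be to Hist1h1e had 26.0 with Hist1h2bq to Hist1h2br against 23.3. In all 18 pairs of parts 1 and 3 the ratio was lower at imminent division than at 10 h, lower at imminent division than at pre-S, and lower at pre-S than at 10 h. With the loess scaling of the edgeR fit given further on, 18, 15 and 16 of the 18 were negative in these comparisons, and of the 6 pairs of parts 2 and 3 only 3 were negative at imminent division against pre-S (median log2 change 0.04). For part 2, among histone bins, the pair with Hist1h4f to Hist1h4d was highest at 3 h (18.5) and 10 h (20.7) and stood at 13.9 at pre-S and 11.1 at imminent division. The pair of part 2 with Hist1h4h to Hist1h3f had 17.8 at 3 h and 16.3 at 10 h, and was the highest at pre-S (15.7) and at imminent division (14.8). The bins of this last pair also hold most of the tRNA genes of the histone bins, 6 and 12 of the 21 in the chromosome 13 bins by the RefSeq annotation, and whether tRNA genes have a part in this was not tested.

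The contact was not confined to bins with histone genes. The 3 bins just before part 3, which hold none, met part 1 at 8.08 and 9.73 in the 3 h libraries, 10.35 and 9.69 in those of 10 h, 8.03 and 6.01 at pre-S and 5.38 and 6.47 at imminent division. With part 2 they stood at 12.5 ± 0.435 at 10 h and 10.9 ± 0.292 at imminent division (SD, n = 2 each), close to the level of parts 2 and 3 at 10 h. The bins between parts 1 and 2 met part 3 at 7.71 ± 0.317 at 10 h and 5.38 ± 0.427 at imminent division. Farther into the interval between parts 2 and 3, with those 3 bins left out, the ratio over all libraries was 0.52 with part 1 and 0.393 with part 2. Part 3 met the whole interval at 0.741, the 3 bins before part 1 met part 3 at 2.31, and part 1 met the 3 bins after part 4 at 1.65.

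For most of the neighbouring sequence too the ratio was lower at imminent division than at 10 h. The fall was 1.69-fold for part 1 with the 3 bins before part 3, 1.43-fold for the bins between parts 1 and 2 with part 3, 1.56-fold for the 3 bins before part 1 with part 3 and 1.53-fold for part 1 with the 3 bins after part 4. It was 1.34-fold for part 3 with the interval and 1.15-fold for part 2 with the 3 bins before part 3. For part 1 with the rest of the interval it was also 1.15-fold, and the libraries of the 2 groups nearly met at 0.522 and 0.528. This last pair had 229 and 315 read pairs at 10 h (433 and 560 expected) and 442 and 545 at imminent division (1033 and 1045 expected). The libraries held 116957398 and 153258311 read pairs at 10 h and 180325399 and 218945191 at imminent division. The expected number thus rose more than the count, and a fall of the ratio is not a change in the count alone. Part 2 with the rest of the interval went the other way, from 0.327 ± 0.0465 at 10 h to 0.469 ± 0.0237. Beside these stand the 2.06-fold of parts 1 and 3 and the 1.63-fold of parts 2 and 3, and the difference between histone bins and their neighbours was not tested. Within a part, contact was closer to what distance predicts. Within part 1 the mean ratio was 1.80 ± 0.0655 at 3 h, 2.06 ± 0.0667 at 10 h, 1.82 ± 0.0325 at pre-S and 1.48 ± 0.243 at imminent division (SD, n = 2 each), and within part 3 it was 1.20 ± 0.0247, 1.22 ± 0.0253, 1.09 ± 0.0488 and 0.907 ± 0.0272 in the same order. On this ratio imminent division was again the lowest group in both. With the loess scaling of the edgeR fit given further on, the falls within part 3 were small. There 11 of 15 bin pairs were negative at imminent division against 10 h (median log2 change -0.08) and 9 of 15 against pre-S (median -0.08). Within part 1, 2 of 3 were negative against 10 h (median -0.50) and 3 of 3 against pre-S (median -0.24). Near-identical sequence was shared by the parts too, with 2.26% of the 81-base words of part 1 present in part 3, 2.02% of those of part 2 in part 3 and 1.91% of those of part 1 in part 2, and its share in the contacts was not tested.

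**Figure D2:**
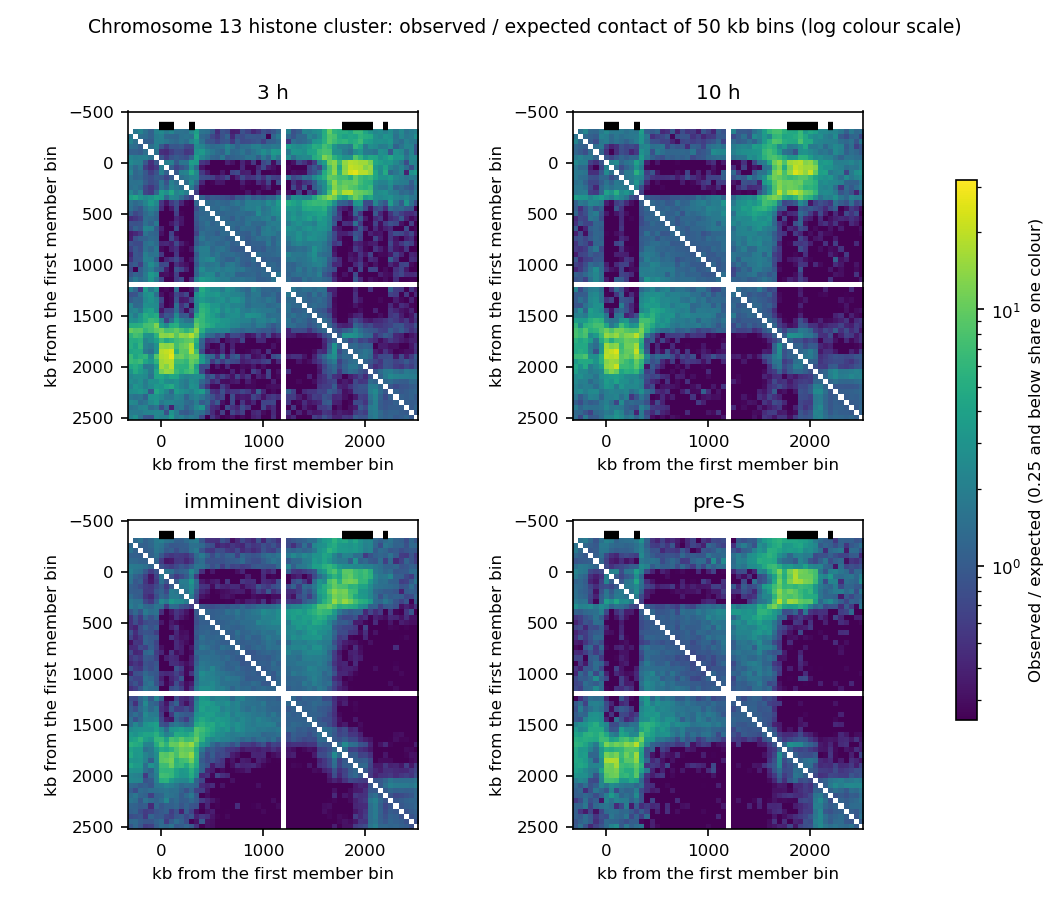
Observed over expected contact of 50 kb bins around the chromosome 13 histone cluster in each group, on a log colour scale with values of 0.25 and below in 1 colour. Both axes give kb from the first histone bin, black bars mark the 11 histone bins, and white lines are the diagonal and a bin left out. The block off the diagonal where parts 1 and 2 meet part 3 is bright at 3 h and 10 h and dimmer at imminent division, where the ratio of parts 1 and 3 was 7.51 on average against 15.5 at 10 h.

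Single bin pairs were then tested for differential interactions (DIs) with edgeR's quasi-likelihood test over all 1458187 bin pairs of the autosomes that passed the abundance limit, with a false discovery rate of 5% by Benjamini-Hochberg adjustment. This test scales libraries by a loess curve on abundance, and its log2 changes were smaller than those of the ratio above. The ratio divides by an expected number that this test does not use. For parts 1 and 3 that number was 135 at 10 h, where 2099 read pairs were counted. It was 245 at imminent division, where 1841 were counted and the libraries were deeper. How much of the difference comes from each scaling was not tested. Of the 55 pairs among the 11 chromosome 13 histone bins 54 were tested, the exception being Hist1h2bq to Hist1h2br with Hist1h2ba to Hist1h2aa (33 read pairs). From 10 h to imminent division 10 pairs were called, all lower, or 10 of 54 against 2.01% of all pairs tested called in either direction and 1.32% called lower. The median log2 change was -0.40 over the 54 pairs against 0.03 over all pairs, and 48 of 54 were negative. For the 18 pairs of parts 1 and 3 the median was -0.51, and all 18 were negative. Among the 49080 tested pairs of A bins at the distances of parts 1 and 3 the median was -0.05, with 0.318% called higher and 0.42% lower. The called pairs that do not join parts 1 and 3 lay at shorter distances, where no such set was counted. Over all libraries the pairs of parts 1 and 3 held 11.8 times the read pairs expected. A change is easier to call at a higher count, and these A pairs were not matched for count. It was thus not tested whether the share of pairs called is particular to histone bins.

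Of the 10 called pairs, 5 joined part 1 to part 3. The strongest by p joined Hist1h2bq to Hist1h2br with Hist1h1c to Hist1h2bb, for which 20 and 46 read pairs were counted in the 3 h libraries, 32 and 44 in those of 10 h, 18 and 19 at pre-S and 15 and 25 at imminent division. As a ratio to expected it stood at 21.04 and 21.76 at 10 h and at 4.85 and 7.40 at imminent division, and the log2 change was -1.32 ± 0.28 (SE, edgeR adjusted p = 0.0021), though 1 of its bins is the poorly covered one. Hist1h2bl to Hist1h4j with Hist1h2be to Hist1h1e, the bin of the linker histone gene Hist1h1e, had 40 and 83 read pairs in the 3 h libraries, 70 and 81 in those of 10 h, 43 and 43 at pre-S and 47 and 55 at imminent division, with ratios of 20.6 and 18.5 at 10 h and 6.68 and 7.15 at imminent division. The groups did not overlap in the ratio, and the log2 change was -0.89 ± 0.19 (edgeR adjusted p = 0.00269). The other 3 all involved Hist1h4k to Hist1h2bp, with Hist1h2ac to Hist1h4c (-0.75 ± 0.21, edgeR adjusted p = 0.0266), Hist1h1c to Hist1h2bb (-0.64 ± 0.19, 0.041) and Hist1h2be to Hist1h1e (-0.70 ± 0.21, 0.0489). Values of Hist1h4k to Hist1h2bp are uncertain as well, since its reads cannot all be placed. Of the 5 pairs, only that of Hist1h2bl to Hist1h4j has neither uncertain bin. No setting left out Hist1h4k to Hist1h2bp.

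A further 4 called pairs lay inside part 3, and 3 of them had the bin Hist1h2ab to Hist1h1a at 1 end. That bin's contact with Hist1h4h to Hist1h3f, at the other end of part 3, fell by 0.86 ± 0.20 on the log2 scale (edgeR adjusted p = 0.0066), from ratios of 1.01 and 0.926 at 10 h to 0.505 and 0.497 at imminent division. The last called pair joined Hist1h1c to Hist1h2bb in part 3 with part 4 and fell by 0.66 ± 0.18 (edgeR adjusted p = 0.0243). No pair of part 2 was called, and the 1 pair between parts with a positive log2 change was that of part 2 with Hist1h4h to Hist1h3f, at 0.22 ± 0.13 (edgeR adjusted p = 0.387). On chromosome 3, the 2 neighbouring bins had a log2 change of -0.21 (edgeR adjusted p = 0.257), and on chromosome 11 -0.14 (0.431).

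In the other comparisons no histone pair passed. From 3 h to 10 h, 0 of 54 were called by edgeR and 6 had an unadjusted p under 0.05, as did 86505 of all 1458187 pairs, with 0.000617% of all pairs called, and the median was -0.13. Between parts the lowest p came from part 2 with Hist1h2ab to Hist1h1a, at -0.51 ± 0.22 (edgeR adjusted p = 0.781), and the other 4 of the lowest 5 joined the same bin or Hist1h2be to Hist1h1e with part 1, at -0.39 to -0.69. From 10 h to pre-S, 0 of 54 were called and 16 had an unadjusted p under 0.05, as did 168016 of all pairs, with 0.594% of all pairs called, and the median was -0.15. The lowest p between parts came from part 2 with Hist1h4f to Hist1h4d, at -0.43 ± 0.14 (edgeR adjusted p = 0.139), followed by Hist1h4k to Hist1h2bp with Hist1h2ab to Hist1h1a at -0.71 ± 0.24 (0.155). Between pre-S and imminent division, 0 of 54 were called and 10 had an unadjusted p under 0.05, as did 144223 of all pairs, with 0.36% of all pairs called, and the median was -0.22 with imminent division lower. Hist1h2bl to Hist1h4j and Hist1h4k to Hist1h2bp, each with Hist1h4f to Hist1h4d, had the lowest p between parts, at -0.43 ± 0.16 and -0.40 ± 0.17 (edgeR adjusted p = 0.283 and 0.361). The comparisons with 10 h share the 10 h libraries.

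**Figure D3:**
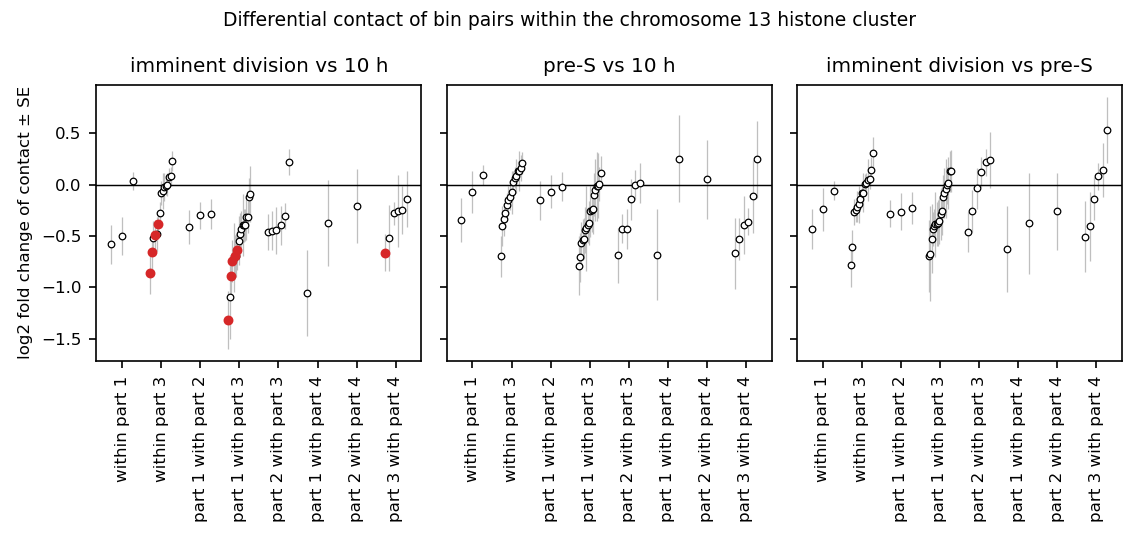
Log2 change of contact ± SE for the 54 tested bin pairs of the chromosome 13 histone cluster in 3 comparisons, grouped by the parts they join and ordered by value, with filled red points where the edgeR adjusted p was under 0.05. The 10 filled points all lie below 0 in imminent division against 10 h, 5 of them between parts 1 and 3.

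The counts of calls depended on the processing and on single libraries. The 10 lower pairs became 31 with TMM factors and 27 with bin coverage in the offsets, each including the 10, and 6 with DESeq2 and 6 with an abundance limit of 2-fold, which included 1 and 5 of them. From 10 h to imminent division, 10 pairs became 2 without 10 h replicate 1, 1 without 10 h replicate 2, 3 without imminent division replicate 1 and 1 without imminent division replicate 2. It became 8 without pre-S replicate 1, 7 without pre-S replicate 2 and 12 without either 3 h replicate. No fit of these gave a higher pair, whereas the abundance limit of 8-fold, given further on, did.

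Contacts between the clusters of different chromosomes were rare in number and high against expectation. Interchromosomal read pairs were set against the number expected from the coverage of both bins. Here 1 is the average over bins of both compartments, whereas the histone bins all lie in A. The bins beside the clusters of chromosomes 13 and 11, given below, met at 3.85 on this scale. Chromosome 13 and chromosome 3 clusters were joined by 633 read pairs, 56.2 times the expected number (exact Poisson 95% interval 51.9 to 60.7). The interval covers counting error only, since it pools the 8 libraries and leaves out the spread between them. The authors marked duplicate reads, and any PCR copies left in the counts cannot be told from separate molecules here. By library the ratio was 57.7 and 62.4 at 3 h, 66.7 and 65.5 at 10 h, 65.5 and 55.7 at pre-S, and 50.9 and 41.8 at imminent division. Every library was far over expectation, and both imminent division libraries lay below the other 6. The group means were 60.0 ± 3.30, 66.1 ± 0.867, 60.6 ± 6.91 and 46.3 ± 6.50 in that order (SD, n = 2 each), and the groups were not told apart at 0.05 (exact permutation p = 0.0571, adjusted 0.0857).

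The single H2A and H2B genes of chromosome 11 were joined to the chromosome 13 cluster by 123 read pairs, 14.9 times the expected number (12.4 to 17.8). Its group means were 13.7 ± 4.13 at 3 h, 16.8 ± 3.80 at 10 h, 15.1 ± 1.78 at pre-S and 14.8 ± 2.41 at imminent division. Hist4h4 on chromosome 6 had 48 read pairs with the chromosome 13 cluster, a ratio of 10.5 (7.75 to 13.9), with group means of 7.48 ± 3.29 at pre-S to 11.4 ± 4.51 at imminent division. Groups overlapped throughout in both, and the adjusted exact permutation p was 0.867 for each. Between the smaller clusters only 18 read pairs joined chromosomes 3 and 11 (8.27, 4.90 to 13.1), 8 joined chromosomes 3 and 6 (6.64, 2.87 to 13.1) and 4 joined chromosomes 6 and 11 (4.54, 1.24 to 11.6). Of the 18 read pairs of chromosomes 3 and 11, 7 and 5 came from the imminent division libraries (ratios of 19.8 and 10.8), above each other library, which had 0 to 3 read pairs and ratios of at most 9.67. This was the opposite direction to chromosomes 13 and 3. Libraries without a read pair have no log ratio, so groups were not tested for these 3 pairs of clusters.

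**Figure D4:**
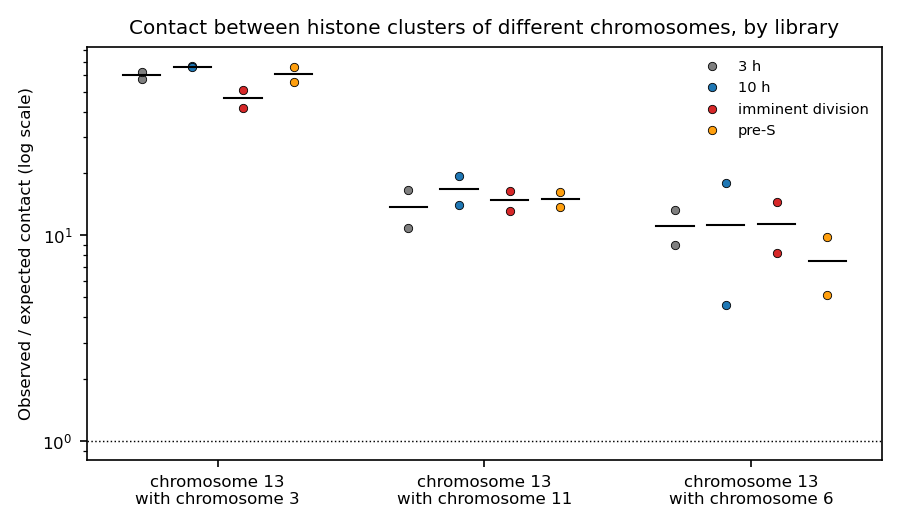
Observed over expected contact (log scale) of the chromosome 13 histone cluster with the histone genes of chromosomes 3, 11 and 6, with 1 point for each library, a bar at each group mean and a dotted line at 1. The chromosome 3 values run from 41.8 to 66.7, and the lowest 2 are the imminent division libraries.

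Over all libraries the contact with chromosome 3 stood at 63.8, 45.3 and 62.6 for parts 1, 2 and 3, and was lower in part 4, at 15.3. Part 2, with 50 read pairs in all, had 73.9 at 10 h and 24.8 at imminent division, where part 4 had 17.8. Differences between parts were not tested. Over all libraries the bins of parts 1 to 3 ran from 44.4 at Hist1h2ab to Hist1h1a to 84.0 at Hist1h4f to Hist1h4d, with Hist1h4k to Hist1h2bp at 78.5 and Hist1h1c to Hist1h2bb at 77.9. The order changed between groups, with Hist1h2bq to Hist1h2br highest at 3 h (145.3, from a bin with 19 read pairs in all), Hist1h4k to Hist1h2bp at 10 h (97.1) and imminent division (80.8), and Hist1h4f to Hist1h4d at pre-S (103.5). The part 4 bin had 18 read pairs with chromosome 3, whereas the bin Hist1h1c to Hist1h2bb had 102. Repeated sequence was compared beside this. Of the 81-base words of the chromosome 13 bins 0.116% also occur in the chromosome 3 bins, with 0 such positions in part 4, 39 in Hist1h1c to Hist1h2bb and 101 in Hist1h4f to Hist1h4d. The 3 bins on either side of the clusters share 0.00472% of such words, or 0.108% of words of 50 bases where the clusters share 0.355%. These bins were joined at a ratio of 12.99 between flanks (582 read pairs), 24.1 between the chromosome 13 bins and the chromosome 3 flanks (722), and 18.96 between the chromosome 13 flanks and the chromosome 3 bins (320). Chromosome 11 flanks met chromosome 13 flanks at 3.85. The bins of chromosome 3 share no 81-base word with those of chromosomes 6 and 11, and 21 and 62 positions of 50 bases. The part of shared sequence in these contacts was not tested.

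Set against all other autosomes, the chromosome 3 histone bins were the strongest interchromosomal partners of the chromosome 13 cluster. Among 3981 bins with at least 10 read pairs with the cluster, Hist2h4 to Hist2h2bb ranked 1 (363 read pairs, ratio 60.6) and Hist2h2ab to Hist2h3c1 ranked 2 (270, 51.2), where the median of the ranked bins was 2.43 and the 99th percentile 6.48. Ranks 3 to 5 were neighbours on chromosome 3, chr3:96450164-96499936 (28.8, with 8 tRNA genes), chr3:96149785-96199995 (27.4, with the starts of Mtmr11, Sf3b4 and Sv2a) and chr3:96399869-96450167 (26.3, with 5 tRNA genes). All of ranks 1 to 12 lay on chromosome 3. Hist3h2ba ranked 13 (69 read pairs, 16.9), Hist3h2a 18 (54, 12.9) and Hist4h4 23 (48, 10.5), so all 5 histone bins outside chromosome 13 stood within the first 23. No bin was called in any of the 4 comparisons by edgeR (0.0% of those tested), with 142, 152, 164 and 87 bins at an unadjusted p under 0.05 for 10 h against 3 h, imminent division against 10 h, pre-S against 10 h and imminent division against pre-S. Among those 152 were both chromosome 3 histone bins, each lower at imminent division. In that comparison the median log2 change was -0.23 over the 5 histone bins and -0.15 over all bins tested.

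**Figure D5:**
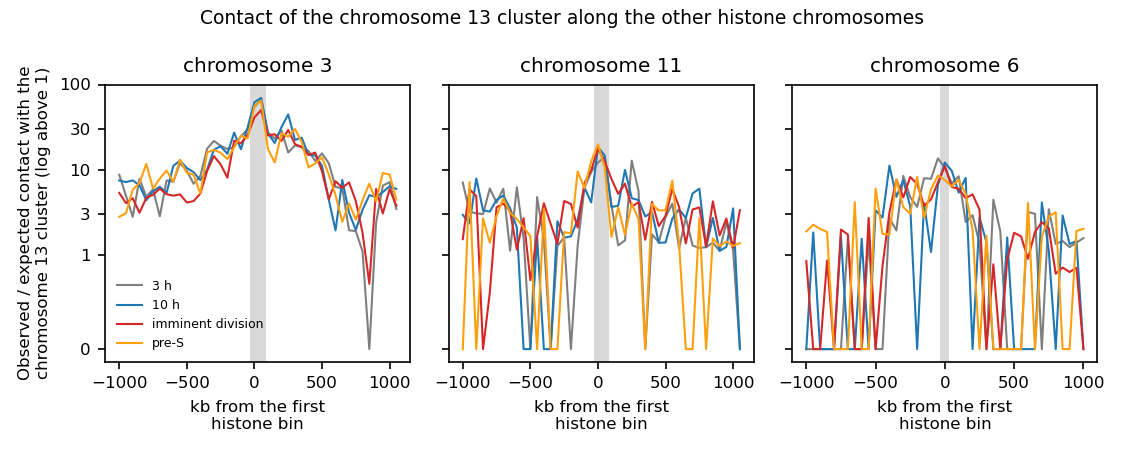
Observed over expected contact of the chromosome 13 histone cluster with the 50 kb bins around the histone genes of chromosomes 3, 11 and 6, by group, with the distance in kb from the first histone bin on the horizontal axis and the histone bins shaded. The vertical axis is logarithmic above 1 and linear below it. On chromosome 3 all 4 lines peak in the shaded bins, at 69.6 at 10 h and 50.1 at imminent division for the bin Hist2h4 to Hist2h2bb, and fall away on both sides.

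Interactivity, the summed same-chromosome read pairs of a bin that stand above the level for their distance, was tested over 12631 bins in which a protein-coding gene starts, 16 of them histone bins. From 3 h to 10 h no histone bin was called by edgeR (0.681% of all bins were), and none had an unadjusted p under 0.05. From 10 h to imminent division 8 of 16 were called, all lower, where 50.8% of all bins were called, 25.5% lower. The median log2 change was -0.10 over the 16 bins and -0.00223 over all bins. The falls were in part 3 at Hist1h2be to Hist1h1e (-0.28 ± 0.048, SE, edgeR adjusted p = 5.72e-06), Hist1h2ac to Hist1h4c (-0.27 ± 0.048), Hist1h1c to Hist1h2bb (-0.24 ± 0.044) and Hist1h4f to Hist1h4d (-0.11 ± 0.045), in part 1 at Hist1h2bq to Hist1h2br (-0.50 ± 0.093) and Hist1h4k to Hist1h2bp (-0.17 ± 0.047), and at Hist2h4 to Hist2h2bb (-0.22 ± 0.041) and Hist3h2ba (-0.15 ± 0.042). Without the interaction filter 2 of these turned, to 0.0163 at Hist1h2bq to Hist1h2br and 0.0400 at Hist1h4f to Hist1h4d. Hist4h4, part 2 and part 4 had log2 changes of 0.00346 to 0.0124, and the bin Hist1h4h to Hist1h3f one of 0.00792.

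At pre-S against 10 h, 34.7% of all bins were called, 17.9% higher and 16.9% lower, and of the histone bins 3 were higher and 3 lower. Those higher were Hist1h4f to Hist1h4d (0.18 ± 0.048), Hist1h4h to Hist1h3f (0.14 ± 0.043) and Hist1h2ah to Hist1h2bj (0.11 ± 0.039), and those lower were Hist1h2bq to Hist1h2br (-0.38 ± 0.10) and both chromosome 3 bins (-0.17 ± 0.053 and -0.13 ± 0.045). With bin coverage added to the scaling the calls were 0 higher and 4 lower, and DESeq2 called 1, which was lower. The 6 calls became 3 without 10 h replicate 1, 2 without 10 h replicate 2 and 2 without pre-S replicate 1. Imminent division against pre-S gave 8 lower bins and no higher one, with 19.9% of all bins called and 10.8% lower. All 8 were on chromosome 13, led by Hist1h4f to Hist1h4d (-0.29 ± 0.046, edgeR adjusted p = 2.71e-05), Hist1h2ac to Hist1h4c (-0.30 ± 0.050) and Hist1h1c to Hist1h2bb (-0.27 ± 0.046). DESeq2 called 4, all lower, and without the interaction filter there were 2 higher and 2 lower. With bin coverage added to the scaling the change at Hist1h4h to Hist1h3f turned to 0.0252. Without imminent division replicate 2 there were 4 calls, 1 higher and 3 lower.

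The compartment component followed another course. Of 11 histone bins of 100 kb, none was called by limma from 3 h to 10 h (2.96% of all bins called), with 1 at an unadjusted p under 0.05. Pre-S had 6 higher than 10 h (17.3% of all bins called, 7.95% higher), namely the chromosome 3 bin, 1 bin of part 1, part 2 and 3 bins of part 3, by 0.127 to 0.164. Imminent division had 1 higher than 10 h, the bin with Hist1h4f to Hist1h1e at 0.143 ± 0.034 (SE, limma adjusted p = 0.0127, with 24.5% of all bins called, 11% higher). Between pre-S and imminent division, Hist1h2ah to Hist1h2bj (-0.201 ± 0.0385) and Hist1h4h to Hist1h3f (-0.208 ± 0.0386) were lower at imminent division (13.8% of all bins called, 7.54% lower). With 200 kb bins there were 5 calls at imminent division against 10 h, 3 higher and 2 lower, and 4 against pre-S, 1 higher and 3 lower. The 6 calls at pre-S became 0 without 10 h replicate 2, 1 without pre-S replicate 2 and 2 without 10 h replicate 1, pre-S replicate 1 or either imminent division replicate. The call at imminent division against 10 h was lost without 10 h replicate 2 or imminent division replicate 1 and became 2 without either 3 h replicate, and the 2 calls against pre-S became 0 without imminent division replicate 2 and 1 without imminent division replicate 1 or pre-S replicate 1.

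The genes that serve the clusters were followed through the interactivity of their own bins. Of 20 genes of histone supply and processing 19 were tested, Cstf2 lying on the X chromosome. None was called from 3 h to 10 h (0.681% of all bins called), 5 were higher and 4 lower from 10 h to imminent division (50.8% of all bins called), 5 higher and 3 lower from 10 h to pre-S (34.7%), and 2 lower at imminent division against pre-S (19.9%), with medians of -0.02 to 0.02. These shares are those of bins called in either direction, and 9, 8 and 2 of 19 genes were called in the last 3 comparisons, so the list's counts say nothing particular to it. Npat, the coactivator of the histone genes, had 2152 and 2721 read pairs at 10 h, 2415 and 1969 at pre-S and 3344 and 4032 at imminent division, and after scaling its log2 change from 10 h was 0.37 ± 0.041 at pre-S (edgeR adjusted p = 1.33e-08) and 0.18 ± 0.038 at imminent division (edgeR adjusted p = 0.000179). The difference between the last 2 was itself called, at -0.19 ± 0.039 (edgeR adjusted p = 0.000444). Ccne2, a cyclin E gene (0.20 ± 0.041), Eri1, a nuclease that trims histone mRNA ends (0.20 ± 0.040), Pou2f1, which encodes OCT1 (0.17 ± 0.039), and Casp8ap2, which encodes FLASH (0.12 ± 0.040), were the others higher at imminent division than at 10 h. Zfp473, a U7 snRNP partner (-0.20 ± 0.040), Cdk2 (-0.13 ± 0.036), Sympk, a scaffold of the cleavage complex (-0.12 ± 0.039), and Snrpb, a core Sm protein gene (-0.10 ± 0.042), were lower. At pre-S against 10 h, Npat, Eri1, Ccne2, Casp8ap2 and Coil were higher and Zfp473, Sympk and Cdk2 lower, and Coil joined Npat as lower at imminent division than at pre-S (-0.12 ± 0.035).

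Histone chaperones carry newly made histones and hand them to DNA. Of 16 such genes 14 were tested, Atrx and Rbbp7 lying on the X chromosome, and 4 of 14 were called at imminent division against 10 h and 6 of 14 at pre-S against 10 h, where 50.8% and 34.7% of all bins were. Hira, which deposits H3.3, was higher at 10 h than at 3 h (0.21 ± 0.049, edgeR adjusted p = 0.0285), the 1 call of 14 in a comparison where 0.681% of all bins were called. From 10 h to imminent division Hat1 (0.20 ± 0.039), Supt16 (0.15 ± 0.041) and Nasp (0.12 ± 0.037) were higher and Daxx lower (-0.16 ± 0.049). At pre-S Supt16, Nasp, Asf1a and Hat1 were higher than at 10 h and Hira and Mcm2 lower, and none was called between pre-S and imminent division, where 19.9% of all bins were. The list of histone genes outside the clusters holds 11 genes, which encode variants. Of these, H2afj starts in the Hist4h4 bin, so its values are those of that histone bin. None of the 11 was higher in any comparison. Against 10 h, 3 were lower at imminent division and 4 at pre-S, where 25.5% and 16.9% of all bins were lower. Of all 12631 bins 3192 were higher at imminent division than at 10 h, 2257 at pre-S than at 10 h and 1157 at imminent division than at pre-S. From 10 h to imminent division H2afy2 (-0.30 ± 0.052), H2afy (-0.22 ± 0.053) and Cenpa (-0.14 ± 0.043) were lower, from 10 h to pre-S these 3 and H3f3a were lower, and between pre-S and imminent division H2afy2 was lower at imminent division. Over the 4 comparisons the medians of the 3 lists lay between -0.05 and 0.02, where those of all bins lay between -0.00236 and 0.00204.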

How the data were processed

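In situ HiC of 8 libraries was analysed from the deposited matrices, 1 for each library, of counts of read pairs between 50 kb bins, neither scaled nor balanced. To make these counts the authors used diffHic with cutadapt and bowtie2 on mm10, marked duplicate reads and took out dangling ends. How reads with several equal matches were treated is not given in the sources used here. Bins carry no coordinates in the matrices and were rebuilt from MboI fragments of GRCm38, which gave 53357 bins, the number in each matrix. After 756 of 48088 autosomal bins were left out (over 10% undetermined sequence, or coverage more than 4-fold from the median), 47332 remained. The study's list of excluded regions was not used. Genes of chromosome X were not tested.

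Groups followed the labels, and the design text calls the 2 replicates of a group biological without saying what was separate. The replicate numbers were not taken as pairs. The histone genes and gene lists were chosen with earlier results of these data known. Bin pairs between parts were named where among the 5 lowest p-values of a comparison in each direction and list genes where called, up to 5 in each direction. Called pairs inside a part were added. DIs were tested with edgeR 4.0.16 (R 4.3.3) over pairs with a summed count of at least 10 and over 4-fold the interchromosomal background, with loess offsets split at 1.5 Mb. Interactivity bins needed at least 200 counts, and compartments (first principal component, 100 kb) were tested with limma 3.58.1. Comparisons across all features used 4 contrasts over the 8 libraries and Benjamini-Hochberg adjustment. Scripts were tested on simulated data. Alternatives included DESeq2 1.42.0, other scaling, filters and bin sizes, a replicate block and leaving out each library. Added after seeing the data were a setting without the bin Hist1h2bq to Hist1h2br and the contacts of the bins beside the parts.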

Additional observations from a re-analysis of the deposited data

How the results depend on the processing

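Depth limited single bin pairs, and the first of the called pairs held as few as 15 read pairs in a library (Hist1h2bq to Hist1h2br with Hist1h1c to Hist1h2bb). The 10 lower pairs of chromosome 13 histone bins at imminent division against 10 h became 31 with TMM factors in place of loess, 27 with bin coverage in the offsets, 6 with DESeq2, 6 with an abundance limit of 2-fold and 1 to 12 with 1 library left out, and the limit of 8-fold gave 13 lower and 1 higher. Of the 10 pairs, DESeq2 called 1, the 2-fold limit 5 and the replicate block 7. For pre-S against 10 h, where the edgeR count was 0, there were 2 calls with TMM, 1 with bin coverage, 1 at 8-fold, 5 with 100 kb bins and 0 to 1 with a library left out. For imminent division against pre-S there were 3, 2, 2 and 1 in that order and again 0 to 1, the 100 kb call being higher. No histone bin was called in the interchromosomal profile under any alternative, and none in any measure from 3 h to 10 h with a library left out.

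Interactivity gave 4 calls in place of 8 for imminent division against pre-S both without the interaction filter and with DESeq2, and 1 in place of 6 for pre-S against 10 h with DESeq2. With a library left out the ranges were 6 to 9 (imminent division against 10 h), 2 to 6 (pre-S against 10 h) and 4 to 9 (imminent division against pre-S). Without the interaction filter the log2 change at imminent division against 10 h turned to 0.0163 at Hist1h2bq to Hist1h2br and 0.0400 at Hist1h4f to Hist1h4d, and with bin coverage in the offsets that against pre-S turned to 0.0252 at Hist1h4h to Hist1h3f. The cause was not tested. Compartment calls at 200 kb were 5 in place of 1 for imminent division against 10 h and 4 in place of 2 against pre-S, and with a library left out they ran from 0 to 2 for the former, 0 to 3 for the latter and 0 to 6 for pre-S against 10 h.

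The adjusted exact permutation p of parts 1 and 3 and of parts 2 and 3 passed with distance alone and with A bins (0.0429 each). With a library left out it ran from 0.0857 to 0.186 for parts 1 and 2, 0.0571 to 0.0857 for parts 1 and 3, 0.0857 to 0.189 for parts 1 and 4, 0.0429 to 0.0857 for parts 2 and 3, 0.186 to 0.857 for parts 2 and 4, 0.0429 to 0.0857 for parts 3 and 4, and 0.103 to 0.386, 0.45 to 1 and 0.551 to 1 for chromosome 13 with chromosomes 3, 6 and 11. Both values of 0.0429 came without 10 h replicate 1. Correlations of deviations by replicate number, taken over single bin pairs, ran from -0.0362 to 0.00316. Counting noise in single bin pairs can hold such a correlation near 0, so it cannot decide whether replicates were paired. With a replicate block the DI calls at imminent division against 10 h were 7, interactivity calls 8, 6 and 7, and the exact permutation p of parts 1 and 3 was 0.125 after adjustment, where the smallest p before adjustment is 0.0417.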

Other observations

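Interchromosomal contacts were also ranked over pairs of 250 kb windows, 145880 of which had at least 50 read pairs, with a median ratio of 3.76 and a 99th percentile of 8.38. The 8 window pairs that join the chromosome 13 and chromosome 3 histone genes ranked 33, 37, 52, 62, 66, 82, 88 and 300, with ratios of 37.0 to 11.9, the first joining a window of part 1 and the last that of part 2. Ranks 1 to 4 joined windows of chromosome 4 around chr4:145750208-147400254 to chr12:20200108-20450048, with ratios of 201 to 124, and none of the first 20 held a histone gene. The histone window of chromosome 11 ranked 827 with part 1 (66 read pairs, 9.36) and 1586 with part 3 (78, 8.24).

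Transfer RNA genes lay close to the clusters. By the RefSeq annotation, 79 of 386 autosomal tRNA genes stood between the first and last chromosome 13 histone bins, and 4 of the 16 histone bins held one, against 0.317% of all usable bins. Among the bins of other chromosomes with the highest contact to the chromosome 13 cluster, ranks 3, 5, 6, 7 and 8, all on chromosome 3, held 8, 5, 5, 3 and 4 tRNA genes, with ratios of 28.8, 26.3, 24.6, 21.9 and 21.8. The other chromosome 3 bins of the first 12, ranks 1, 2, 4, 9, 10, 11 and 12, held none. Of these, ranks 4, 9 and 10 had similar ratios of 27.4, 21.6 and 21.4. The first ranked bin without a histone gene outside chromosome 3 was chr6:47749958-47800114, at rank 14 with 49 read pairs and a ratio of 16.9, and it held none. Whether tRNA genes have a part in these contacts was not tested.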
